A study of Mus musculus with 2 samples.

Results

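The 50 mitosis genes described here encode the proteins that carry a cell from G2 through the division of its chromosomes and cytoplasm. They were taken as a named list, and all 50 were among the 27933 gene symbols of both deposited count tables. Their RNA was read cell by cell in mouse thymus suspensions of thymocytes, the precursors of T cells. The mutant library is from thymus in which both copies of the enhancer NMe carry altered GATA sites 1 and 2, and the other library is wild type. NMe lies far from Myc and binds Notch, and its GATA sites are sequences that factors such as GATA3 recognise. Age, sex, strain and the number of animals per library are not given in the sources used here. With 1 library per genotype no test between genotypes exists, so that each comparison is between these libraries and each 95% interval covers counting error only.

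Division starts when the kinase CDK1, activated by B-type cyclins, drives the phosphorylation that condenses the chromosomes and lets the spindle form. The anaphase-promoting complex then marks cyclin B and securin for destruction, the sister chromatids separate and the cell cleaves. Most of these genes are transcribed late in the cell cycle, under control of the MuvB and B-MYB complexes through promoter elements called CHR and of NF-Y through CCAAT boxes. In the thymus, division is concentrated in precursors that have passed beta-selection, in late double-negative (DN, CD4-CD8-) cells and early double-positive (DP, CD4+CD8+) blasts. Small DP cells and most single-positive (SP) cells have left the cycle.

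To show the kind of promoter these genes carry, the 100 bases before the RefSeq start (GRCm38.p6) are given for 8 members, 5′ to 3′ on the strand of the gene. Capitals mark matches on either strand. A CCAAT box reads CCAAT on one strand, with ATTGG as its reverse complement. A CHR element was searched as TTTGAA, with TTCAAA as its reverse complement, and as the palindrome TTTAAA. The first 6 are members whose level outside the cycling gate, defined below, was under 5% of that in strongly cycling cells in both libraries, and the last 2, Kif23 and Lbr, are members at 20% or more in both. Hmgb2, one of the first 6, stood at 3.36% in mutant and 3.11% in wild type by level, but a UMI of it was found in 32.8% of mutant and 34.8% of wild type cells outside the gate. Up to 26 of the 100 bases, in Cdk1, lie in an annotated GENCODE exon.
Cdk1, chr10:69352913-69353012, minus strand: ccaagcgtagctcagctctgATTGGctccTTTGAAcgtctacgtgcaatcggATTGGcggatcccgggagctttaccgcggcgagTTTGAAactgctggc
Ccnb2, chr9:70421555-70421654, minus strand: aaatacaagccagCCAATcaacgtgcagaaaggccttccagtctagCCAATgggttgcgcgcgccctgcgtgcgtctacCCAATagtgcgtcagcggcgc
Cdc20, chr4:118437344-118437443, minus strand: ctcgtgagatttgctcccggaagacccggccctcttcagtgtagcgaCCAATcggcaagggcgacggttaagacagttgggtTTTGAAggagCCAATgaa
Hmmr, chr11:40733438-40733537, minus strand: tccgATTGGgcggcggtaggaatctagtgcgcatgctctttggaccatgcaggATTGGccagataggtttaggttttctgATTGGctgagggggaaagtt
Top2a, chr11:99024190-99024289, minus strand: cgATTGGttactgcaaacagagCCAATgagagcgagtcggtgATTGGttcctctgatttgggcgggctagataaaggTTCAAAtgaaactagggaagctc
Hmgb2, chr8:57511743-57511842, plus strand: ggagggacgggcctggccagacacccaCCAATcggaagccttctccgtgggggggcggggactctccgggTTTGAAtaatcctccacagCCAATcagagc
Kif23, chr9:61946800-61946899, minus strand: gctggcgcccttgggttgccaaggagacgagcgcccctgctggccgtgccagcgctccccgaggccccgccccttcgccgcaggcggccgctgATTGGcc
Lbr, chr1:181842402-181842501, minus strand: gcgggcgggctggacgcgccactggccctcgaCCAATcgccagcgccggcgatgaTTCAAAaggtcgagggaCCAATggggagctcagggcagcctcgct

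RefSeq promoters were found for 44 of the 50 members, with 49 start sites. A CCAAT box lay in these 100 bases in 34 of the 49 member promoters (69.4%) and in 18.9% of all 32851 promoters of the same length. A CHR element of either form lay in 15 of the 49 (30.6%), against 9.71% of all promoters. Both elements together were in 13 of the 49 (26.5%), against 1.77% of all promoters. Hmmr and Ccnb2 had 3 CCAAT boxes each and no CHR match, whereas Cdk1 had 2 of each. Of the 33 promoters of members with an outside level under 5% of their level in cycling cells, 23 held a CCAAT box, and of the 9 promoters of members at 20% or more, 5 did. A match of these letters is a description of the sequence and does not show binding.

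The mutant library held 1737 cell barcodes and 6364506 unique molecular identifiers (UMIs, 1 per captured RNA molecule), and the wild type library 1346 barcodes and 6638880 UMIs. Medians per barcode were 2596 UMIs in mutant and 3323.5 UMIs in wild type, and 1727 mutant and 1340 wild type cells were kept. Only 1 barcode was found in both libraries. Stages were set by UMIs of marker genes, and cycling by 73 replication and other mitosis genes, none of them a member. A cell was inside the cycling gate with at least 3 gate UMIs and 10 or more per 10000. On a logarithmic scale the gate score had 2 modes, and between them lay 18 mutant and 14 wild type cells from 30 to 40 per 10000 and 13 mutant and 8 wild type cells from 40 to 50. Cells at 30 or more are called strongly cycling, a limit chosen after seeing the data that lies on the falling side of this trough. Cells past marker limits for antigen-presenting, innate-like, erythroid or epithelial cells, 206 in mutant and 114 in wild type, were held apart as other cells and count neither as inside nor as outside the gate, also where they score 30 or more (70 in mutant, 68 in wild type). Levels are UMIs per 1000000 UMIs of the cells summed (CPM).

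**Figure D1:**
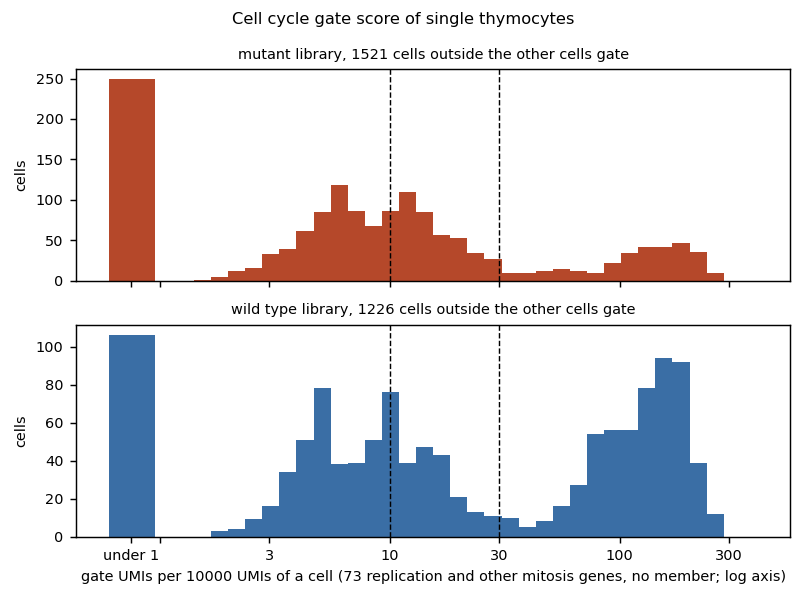
Gate score of single thymocytes, as UMIs of 73 replication and other mitosis genes per 10000 UMIs of the cell (x axis, logarithmic, with cells under 1 drawn at the left end), against the number of cells (y axis), in the mutant (top, 1521 cells) and wild type (bottom, 1226 cells) library, with the other cells left out. Dashed lines mark 10 and 30 per 10000: 300 mutant and 548 wild type cells lie at 30 or more.

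With the other cells left out of both counts, strongly cycling cells were 300 of 1521 in mutant (19.7%, 95% interval 17.8 to 21.8) and 548 of 1226 in wild type (44.7%, 41.9 to 47.5), and they held 87.3% of the member UMIs in mutant and 95.8% in wild type. With the other cells kept in both counts they were 370 of 1727 in mutant (21.4%) and 616 of 1340 in wild type (46.0%), with 89.5% of the member UMIs in mutant and 96.0% in wild type. Over all cells, the other cells included, the 50 members summed to 8116 CPM in mutant and 12416 CPM in wild type, and without the other cells to 7413 CPM in mutant and 12858 CPM in wild type. Within strongly cycling cells they summed to 18930.1 CPM in mutant and 19061 CPM in wild type, and with the other cells kept in to 18612 CPM in mutant and 17595 CPM in wild type. Cells with a score between 10 and 30 were inside the gate but not strongly cycling. They carried 1745 CPM in mutant (302 cells) and 2107 CPM in wild type (186 cells). Outside the gate the members summed to 1319 CPM in mutant and 1301 CPM in wild type. The cells between 10 and 30 thus stood above those outside the gate in both libraries, and far below strongly cycling cells. The summed levels of strongly cycling cells differed little, while the intervals of their shares of all cells did not overlap. Strongly cycling cells were picked by genes known to be expressed with the members, so that alike levels in them are in part set by the gate. In sums over all cells, fewer cells of a kind and less RNA per cell cannot be told apart.

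Over all cells, 47 members reached 20 CPM in at least 1 library and all 47 were lower in mutant, 22 of them by 1.5 times or more, with a median log2 ratio of mutant over wild type of -0.57. Across all 5628 genes at that level 3.98% were lower and 9.03% higher by 1.5 times or more, and the median gene stood at 0.093. Inside the cycling gate 49 members reached 20 CPM, 42 were lower and 7 higher in mutant, and 4 were lower by 1.5 times or more, against 2.13% of all genes, and none was higher by that much, against 11% of all genes. Those 4 were Mki67 at -0.69, G2e3 at -0.65, Cenpe at -0.62 and Cenpf at -0.60, with a median of -0.33 over the members and 0.15 over all genes. In the cells with a score between 10 and 30, 22 members reached 20 CPM, 18 lower and 4 higher in mutant. Of the 22, 12 were lower by 1.5 times or more, against 8.45% of all genes, and none was higher by that much, against 14.8%. The median of the 22 was -0.66, and that of all genes 0.091. These ratios rest on few member UMIs, 1490 in mutant and 1157 in wild type over all 50 members. At such counts a member could pass the 20 CPM limit through 1 library alone, which favours a difference toward that library. Nusap1, for example, was found in 0 of 302 mutant and 9 of 186 wild type cells of this band. Among strongly cycling cells all 50 reached 20 CPM, 22 were lower and 28 higher, none was lower by 1.5 times (2.75% of all genes were) and only Dlgap5 was higher by that much (11.4% of all genes were). Their median was 0.019, and that of all genes 0.18. The members' median was not alike in the replication and mitotic sides of these cells, which are set out below. On the replication side it was -0.18, against 0.18 over all genes. Of 47 members at 20 CPM there, 32 were lower and 15 higher in mutant. Lower by 1.5 times or more were 4 of them (8.51%), against 3.41% of all genes, and none was higher by that much, against 14.7%. On the mitotic side the median was 0.077, against 0.15 over all genes, with 22 members lower and 28 higher. None was lower by 1.5 times there, against 8.13% of all genes, and 2 were higher, against 16.6%.

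The sizes over all cells depended on how cells were weighted. With each cell given the same weight, the median log2 ratio over all cells was -1.03 with 38 members lower by 1.5 times or more, and with each cell thinned to 1500 UMIs it was -1.02 with 37. Inside the gate the same weightings gave -0.72 with 29 members and -0.64 with 30. Strongly cycling cells gave -0.16 and -0.13, with 0 and 4 members. Under these weightings the shares and medians of all genes were not computed, so that these counts have no background beside them. Over all cells, 49 of the 50 members were lower in mutant under every one of 6 alternatives, and Dlgap5 was the exception. Among members in strongly cycling cells 22 of 50 kept their direction under all 7 alternatives, 8 of them higher and 14 lower.

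**Figure D2:**
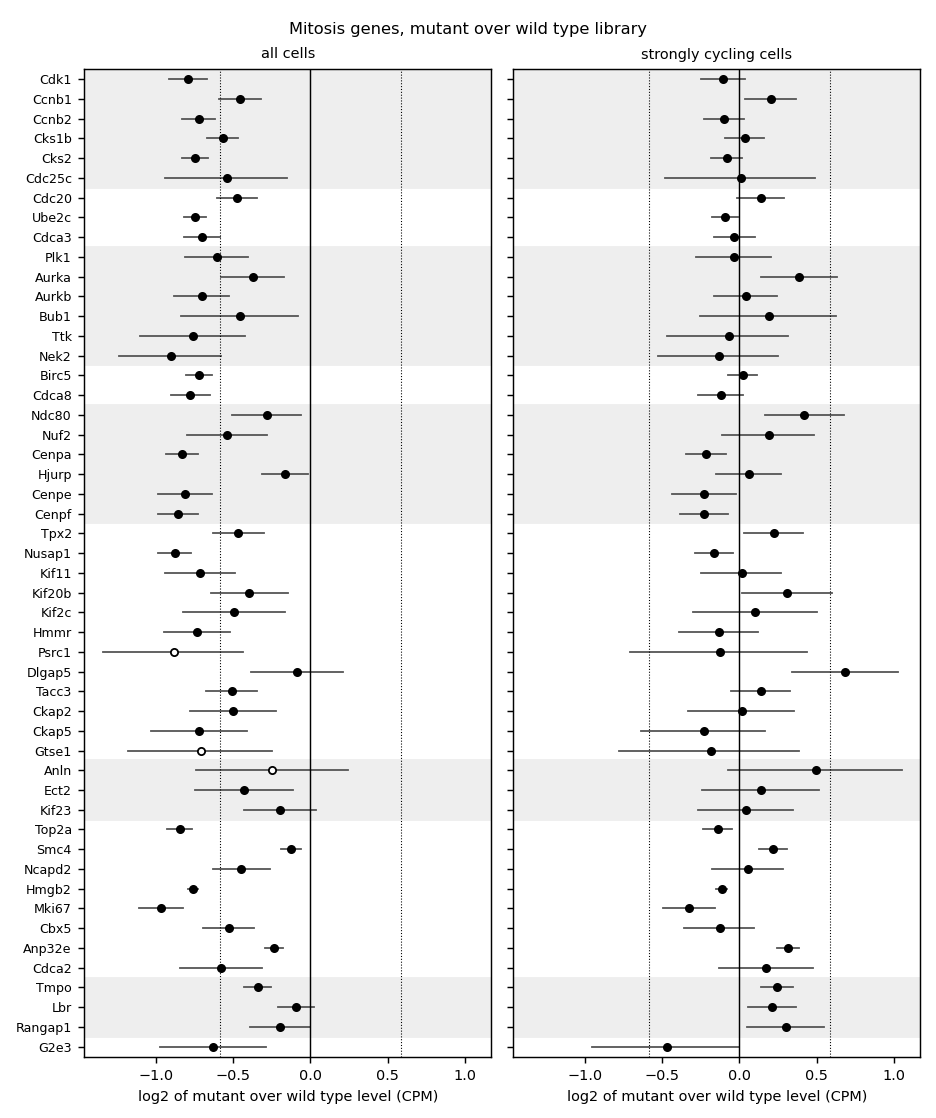
Log2 ratio of mutant over wild type level for each of the 50 members (rows, shaded by role) over all cells (left) and in strongly cycling cells (right). Points are ratios of summed UMIs per 1000000 UMIs, lines their 95% counting intervals, open points members under 20 CPM in both libraries, and dotted lines mark 1.5 times. All points on the left lie below 0, while those on the right lie on both sides of it, between -0.47 and 0.69.

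The switch into mitosis is set by Cdk1, its cyclins Ccnb1 and Ccnb2, the small CDK-binding proteins Cks1b and Cks2, and the phosphatase Cdc25c that removes inhibitory phosphates from CDK1. Over all cells these 6 were lower in mutant, with log2 ratios between -0.79 and -0.45, and in strongly cycling cells they lay between -0.11 and 0.20. Cdk1 stood at 345 CPM in mutant and 371 CPM in wild type strongly cycling cells, and Ccnb2 at 424 CPM in mutant and 454 CPM in wild type. Cks2 stood at 706 CPM in mutant and 747 CPM in wild type, and Cks1b at 459.9 CPM in mutant and 449 CPM in wild type. Ccnb1 stood at 278 CPM in mutant and 241 CPM in wild type, the only one of the 6 with an interval above 0 (0.04 to 0.37), and its direction turned with cells thinned to 1500 UMIs. A UMI of Cdk1 was found in 53.7% of mutant and 69.7% of wild type strongly cycling cells. After thinning to 1500 UMIs the shares were 26.4% in mutant and 37.0% in wild type. Cdc25c, at 32.6 CPM in mutant and 32.4 CPM in wild type, was found in 14.0% of mutant and 17.2% of wild type cells.

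The anaphase-promoting complex route was represented by Cdc20, the activator that selects securin and cyclin B, Ube2c, the ubiquitin-conjugating enzyme that starts the chains, and Cdca3, a trigger of mitotic entry. Ube2c was at 1009 CPM in mutant and 1077 CPM in wild type strongly cycling cells, with a log2 ratio of -0.09 (-0.18 to -0.01), and over all cells at 415 CPM in mutant and 696 CPM in wild type (-0.75). Cdc20 was at 313 CPM in mutant and 284 CPM in wild type, and Cdca3 at 407 CPM in mutant and 416 CPM in wild type.

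The mitotic kinases are Plk1 and Aurka, which act at centrosomes, Aurkb of the chromosomal passenger complex, the spindle checkpoint kinases Bub1 and Ttk, and the centrosome kinase Nek2. Over all cells these 6 were lower in mutant, with log2 ratios between -0.90 for Nek2 and -0.37 for Aurka. In strongly cycling cells Aurka was at 135 CPM in mutant and 103 CPM in wild type, a log2 ratio of 0.39 (0.14 to 0.63) that stayed above 0 under all 7 alternatives, between 0.23 and 0.41. Plk1 was at 123 CPM in mutant and 126 CPM in wild type, and Aurkb at 177 CPM in mutant and 172 CPM in wild type. Birc5 (survivin) and Cdca8 (borealin) hold Aurkb on the centromere. Birc5 was at 776 CPM in mutant and 765 CPM in wild type, and Cdca8 at 321 CPM in mutant and 349 CPM in wild type. By side of the strongly cycling cells, set out below, the 6 kinases, Aurka among them, differed. Their log2 ratios lay between -0.87 and 0.021 on the replication side and between 0.094 and 0.48 on the mitotic side.

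Of the centromere and kinetochore genes, Cenpa encodes the histone variant that marks the centromere, Hjurp its chaperone, Cenpe a kinesin of the kinetochore, Cenpf a fibrous corona protein, and Ndc80 and Nuf2 subunits of the complex that grips microtubules. The 3 CENP genes were on the low side in mutant strongly cycling cells under every alternative. Cenpa was at 415 CPM in mutant and 482 CPM in wild type, Cenpf at 288 CPM in mutant and 337 CPM in wild type, and Cenpe at 160.2 CPM in mutant and 187 CPM in wild type, with log2 ratios of -0.21, -0.23 and -0.23. Ndc80 was at 126 CPM in mutant and 94.0 CPM in wild type (0.42, 0.16 to 0.67) and stayed above 0 under every alternative, as did Nuf2 at 0.19, whose interval reached 0.

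The 12 spindle members include the kinesins Kif11, Kif20b and Kif2c, the microtubule-binding proteins Tpx2, Nusap1, Hmmr, Ckap5, Ckap2, Tacc3, Psrc1 and Dlgap5, and Gtse1, a G2 and S phase protein that binds microtubules. Nusap1 was at 475 CPM in mutant and 531 CPM in wild type strongly cycling cells (-0.16). Dlgap5, a target of Aurka that stabilises spindle fibres, was at 76.5 CPM in mutant and 47.6 CPM in wild type, a log2 ratio of 0.69 (0.34 to 1.03). Its UMIs were found in 28.3% of mutant and 22.8% of wild type strongly cycling cells, and its ratio stayed between 0.31 and 0.71 under the 7 alternatives. Tpx2 was at 212 CPM in mutant and 182 CPM in wild type, but turned below 0, to -0.37 on the log2 scale, after thinning. The cytokinesis members Anln, Ect2 and Kif23 had ratios of 0.50, 0.14 and 0.04, each with an interval that held 0.

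Chromosome and chromatin members were Top2a, the topoisomerase that untangles sister chromatids, the condensin subunits Smc4 and Ncapd2, Mki67, which coats mitotic chromosomes, the heterochromatin protein Cbx5, the chromatin proteins Hmgb2 and Anp32e, and the phosphatase regulator Cdca2. Mki67 had the lowest ratio of all members over all cells, at 96.2 CPM in mutant and 188 CPM in wild type (-0.96), and stood at 239.7 CPM in mutant and 300.1 CPM in wild type strongly cycling cells (-0.32, -0.49 to -0.16). Hmgb2 was at 5422 CPM in mutant and 5861 CPM in wild type, and Top2a at 791 CPM in mutant and 870.4 CPM in wild type. These 3 were lower in mutant under all 7 alternatives. Anp32e, a chaperone that removes the histone variant H2A.Z, was at 1488 CPM in mutant and 1197 CPM in wild type (0.31, 0.24 to 0.39), and Smc4 at 915 CPM in mutant and 786 CPM in wild type (0.22, 0.13 to 0.31). Both stayed above 0 under all 7 alternatives. For the nuclear envelope, Tmpo and Lbr, inner nuclear membrane proteins, and Rangap1, the RAN GTPase activator, had ratios of 0.25, 0.21 and 0.30, and after thinning Lbr and Rangap1 turned below 0, to -0.11 and -0.65 on the log2 scale. G2e3, a ubiquitin ligase named for its G2 and M phase expression, was at 30.9 CPM in mutant and 42.7 CPM in wild type, from 15.3% of mutant and 21.7% of wild type cells.

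Among strongly cycling cells, those with more UMIs of the other mitosis genes than of the replication genes are called the mitotic side, 85 cells in mutant and 163 in wild type, and the remaining 215 mutant and 385 wild type cells the replication side. On the mitotic side the members summed to 31575 CPM in mutant and 31254 CPM in wild type, with a median of 35 members detected per mutant cell and 34 per wild type cell. On the replication side they summed to 13369 CPM in mutant and 14785 CPM in wild type, with medians of 16 members in mutant and 23 in wild type. Of the 50 members, 49 in mutant and all 50 in wild type were higher on the mitotic side than on the replication side. Cdc20 had 759.5 CPM on the mitotic side of mutant and 668 CPM in wild type, and on the replication side 116 CPM in mutant and 149.8 CPM in wild type, which is 6.54-fold in mutant and 4.46-fold in wild type. Ube2c was 5.72-fold higher on the mitotic side in mutant and 4.53-fold in wild type, and Ccnb1 5.49-fold in mutant and 4.51-fold in wild type. Cbx5 was the least different, at 0.943-fold in mutant and 1.11-fold in wild type, and Lbr, Rangap1, Ncapd2, Smc4 and Tmpo were between 1.28- and 1.70-fold in both libraries. The side was set by other mitosis genes, which are known to be expressed with these members, so that the folds are a description.

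**Figure D3:**
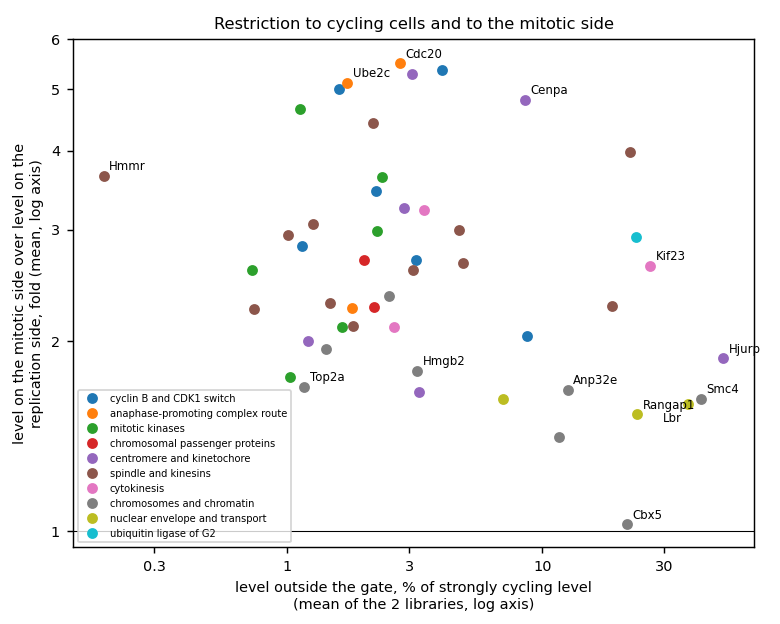
Level outside the cycling gate as a percentage of the level in strongly cycling cells (x axis, mean of the 2 libraries, logarithmic) against the fold of the level on the mitotic side over the replication side (y axis, mean of the 2 libraries, logarithmic), with 1 point per member coloured by role. Cdc20 and Ube2c lie at the top left, Hjurp, Smc4 and Lbr at the right, and Cbx5 at the bottom.

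Outside the cycling gate, in 919 mutant and 492 wild type cells, the level of the median member was 2.04% of its strongly cycling level in mutant and 2.91% in wild type. Under 5% stood 36 members in mutant and 33 in wild type. Ttk and Gtse1 were at 0 UMIs in mutant, and Bub1 and Hmmr at 0 UMIs in wild type. A count of 0 allows up to 3 UMIs in the library. Of 15 members that reached 20 CPM outside the gate, 8 were lower and 7 higher in mutant, with a median log2 ratio of -0.0011 against 0.06 over all genes. This depended on the gate: outside a gate of replication genes alone the median was -0.69, with 13 members lower by 1.5 times or more. Those cells, 1027 in mutant and 574 in wild type, include 108 mutant and 82 wild type cells that lie inside the gate of both lists, which held 32.0% of their member UMIs in mutant and 49.5% in wild type. The share and median of all genes were not computed for them. Outside the gate of both lists, Ube2c (13.4 CPM in mutant, 22.8 CPM in wild type) and Birc5 (11.7 CPM in mutant, 22.0 CPM in wild type) were lower by 1.5 times or more, against 3.11% of all genes. Ncapd2 (22.6 CPM in mutant, 9.55 CPM in wild type) was higher by that much, against 5.65% of all genes. These rest on 32 UMIs in mutant and 31 in wild type for Ube2c, 28 in mutant and 30 in wild type for Birc5, and 54 in mutant and 13 in wild type for Ncapd2. Ube2c and Birc5 reached 20 CPM only in wild type, and Ncapd2 only in mutant. The filter thus let them in through the library where they were higher, which favours the direction given.

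A small group kept a sizeable part of its strongly cycling level in cells outside the gate. In those cells the replication genes still summed to 386 CPM in mutant and 361 CPM in wild type. The other mitosis genes of the gate summed there to 102 CPM in mutant and 131 CPM in wild type. Hjurp stood outside the gate at 79.1 CPM in mutant and 88.1 CPM in wild type, 47.4% of its strongly cycling level in mutant and 55.1% in wild type. Smc4 stood at 376 CPM in mutant and 335 CPM in wild type, 41.1% of the strongly cycling level in mutant and 42.6% in wild type. Lbr stood at 112 CPM in mutant and 105 CPM in wild type, 35.7% in mutant and 38.8% in wild type. Kif23 kept 29.2% in mutant and 23.6% in wild type, G2e3 25.8% in mutant and 20.6% in wild type, Cbx5 24.0% in mutant and 19.0% in wild type, Ckap5 23.5% in mutant and 14.1% in wild type, and Rangap1 19.7% in mutant and 27.4% in wild type. G2e3 rested there on 19 UMIs in mutant and 12 in wild type, and Ckap5 on 25 in mutant and 10 in wild type. No cell outside the gate had more than 1 UMI of either. Psrc1 differed between the libraries, at 9.04% in mutant and 34.9% in wild type, from 5 UMIs in mutant and 12 in wild type. Cenpa kept 7.55% in mutant and 9.60% in wild type, whereas Top2a kept 0.899% in mutant and 1.43% in wild type and Nusap1 0.793% in mutant and 0.691% in wild type.

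**Figure D4:**
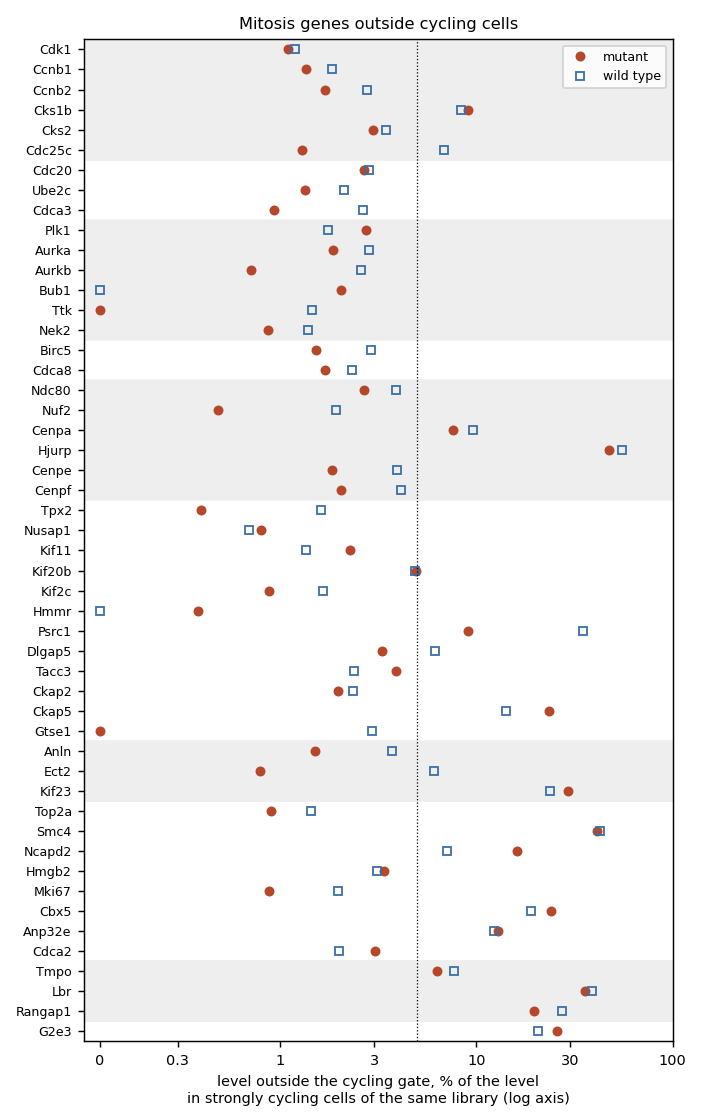
Level of each member outside the cycling gate as a percentage of its level in strongly cycling cells of the same library (x axis, logarithmic, with 0 drawn at the left end), for mutant (filled circles) and wild type (open squares), with members in rows shaded by role and a dotted line at 5%. Hjurp, Smc4 and Lbr lie farthest to the right, and most members lie left of the line in both libraries.

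Outside the gate of both lists the member UMIs were spread over many cells. The 5 cells richest in member UMIs, 0.544% of mutant and 1.02% of wild type cells outside the gate, held 3.62% of the member UMIs in mutant and 5.59% in wild type. Outside a gate of replication genes alone the 5 richest cells held 19.1% in mutant and 24.4% in wild type. Of 919 mutant cells 3 and of 492 wild type cells 2 had 10 or more members detected, with 13 members at most in each library. Smc4 had 899 UMIs in 454 mutant cells and 456 UMIs in 256 wild type cells. Hjurp had 189 UMIs in 166 mutant cells and 120 UMIs in 96 wild type cells, and Lbr 268 UMIs in 231 mutant cells and 143 UMIs in 119 wild type cells. For the restricted members the counts were small: Cdk1 had 9 UMIs in 9 mutant cells and 6 UMIs in 6 wild type cells, and Top2a 17 UMIs in 16 mutant cells and 17 UMIs in 16 wild type cells. In mutant 13 members and in wild type 13 members had 3 UMIs or fewer outside the gate. For 32 members in mutant and 29 in wild type no outside cell had more than 1 UMI. Values of such members rest on single molecules in a few cells, which free RNA in droplets also gives, and its part was not tested.

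The share of cells with a UMI followed the same split. In strongly cycling cells the median member was found in 44.5% of mutant and 50.5% of wild type cells, at median depths of 4734 UMIs in mutant and 5567 UMIs in wild type. Outside the gate it was found in 0.979% of mutant and 1.73% of wild type cells, at 2153 UMIs in mutant and 2358.5 UMIs in wild type. With all cells thinned to 1500 UMIs, which left out 97 mutant cells and no wild type cell, the medians in strongly cycling cells were 19.7% in mutant and 20.7% in wild type, and outside the gate 0.647% in mutant and 1.02% in wild type. Smc4 was found outside the gate in 49.4% of mutant and 52.0% of wild type cells, and Hmgb2 in 32.8% of mutant and 34.8% of wild type cells. Hjurp was found in 18.1% of mutant and 19.5% of wild type cells outside the gate and in 52.0% of mutant and 57.7% of wild type strongly cycling cells. Ube2c was found outside the gate in 3.48% of mutant and 5.89% of wild type cells, against 57.3% of mutant and 72.4% of wild type strongly cycling cells.

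By stage, DP cells made up 552 of the mutant cells (32.0%) and 668 of the wild type cells (49.9%), and 24.8% of them in mutant and 61.2% in wild type were strongly cycling. SP cells were 34.6% of mutant and 25.5% of wild type cells, with 11.7% strongly cycling in mutant and 26.0% in wild type. DN cells were few, 114 in mutant and 34 in wild type, with 32.5% and wide limits (24.0 to 41.9) strongly cycling in mutant and 35.3% (19.7 to 53.5) in wild type. Post-selection cells were 209 in mutant and 155 in wild type, with 18.7% strongly cycling in mutant and 20.6% in wild type. The gates depend on depth: strongly cycling SP cells had median totals of 6490.5 UMIs in mutant and 7997 UMIs in wild type and carried DP markers at 1512 CPM in mutant and 2338 CPM in wild type beside SP markers at 745 CPM in mutant and 469 CPM in wild type. When stages were set on cells thinned to 1500 UMIs, an alternative chosen after seeing the data, strongly cycling cells were 171 of 581 DP cells in mutant (29.4%) and 465 of 764 in wild type (60.9%), but only 5 post-selection and 34 SP cells in mutant and 3 post-selection and 25 SP cells in wild type. Followed cell by cell, 3 of 39 mutant and 2 of 32 wild type strongly cycling post-selection cells, and 23 of 70 mutant and 20 of 89 wild type SP cells, kept their stage under the thinned gates, against 106 of 133 mutant and 362 of 409 wild type DP cells. Of the SP cells 21 in mutant and 49 in wild type were DP cells by the thinned gates.

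In strongly cycling DP cells the members summed to 21124 CPM in mutant (137 cells) and 20013 CPM in wild type (409 cells), with a median log2 ratio of 0.07 against 0.21 over all genes. There G2e3 was lower by 1.5 times or more, against 4.43% of all genes, and Dlgap5 and Aurka higher, against 16.7% of all genes. G2e3 was at 28.3 CPM in mutant and 44.4 CPM in wild type (-0.65). Dlgap5 was at 94.4 CPM in mutant and 46.9 CPM in wild type (1.01), Aurka at 158.9 CPM in mutant and 103 CPM in wild type (0.62) and Ndc80 at 148 CPM in mutant and 102 CPM in wild type (0.54). Anp32e was at 1674 CPM in mutant and 1286 CPM in wild type (0.38), and Lbr at 367 CPM in mutant and 286 CPM in wild type (0.36). Ube2c was at 987 CPM in mutant and 1079 CPM in wild type (-0.13). Hmgb2 was at 6307 CPM in mutant and 6213 CPM in wild type, found in 133 of 137 mutant and 408 of 409 wild type cells. With the thinned stage gates the DP median was 0.34. Inside the whole cycling gate the DP median was -0.28, and 0.094 with the thinned stage gates.

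**Figure D5:**
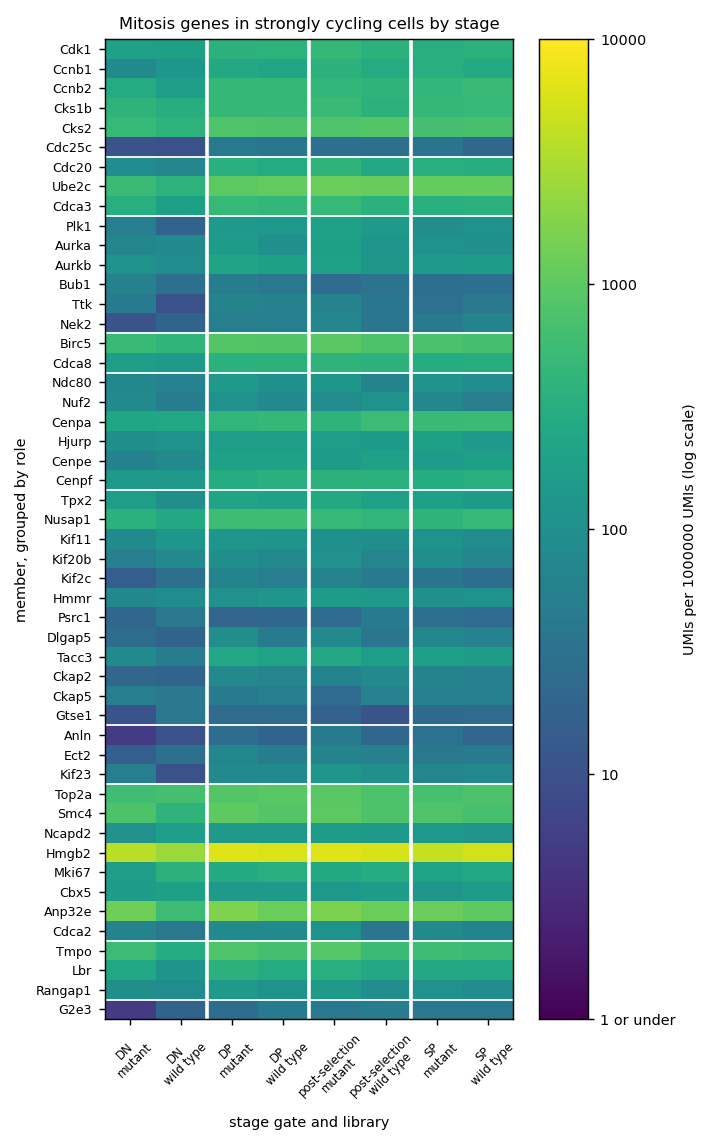
Level of each member (rows, grouped by role) in strongly cycling cells of each stage gate, in UMIs per 1000000 UMIs on a logarithmic colour scale, with the mutant column left of the wild type column in each stage. DN columns rest on 37 mutant and 12 wild type cells and are the darkest, and the columns of the other stages look alike.

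In strongly cycling DN cells the members summed to 13146 CPM in mutant (37 cells) and 9642 CPM in wild type (12 cells), below every other stage in both libraries, but the 5 richest cells held 40.5% of the member UMIs in mutant and 79.0% in wild type. Mitotic side cells were 5 of these in mutant and 2 in wild type. Anp32e was at 1331 CPM in mutant and 554 CPM in wild type there (1.26, 0.84 to 1.71), Smc4 at 754 CPM in mutant and 396 CPM in wild type (0.93, 0.42 to 1.47), and Mki67 at 172 CPM in mutant and 376 CPM in wild type (-1.13, -1.85 to -0.42). Of 46 members that reached 20 CPM 15 were higher and 9 lower by 1.5 times or more, against 42.1% and 17% of all genes. In strongly cycling SP cells the members summed to 17178 CPM in mutant (70 cells) and 17673 CPM in wild type (89 cells), with a median of 0.021, and -0.017 with the thinned gates. No member was lower by 1.5 times or more there, against 7.31% of all genes, and Cdc25c (18 UMIs in mutant, 16 in wild type) and Anln (16 UMIs in mutant, 15 in wild type) were higher, against 20.7% of all genes. In strongly cycling post-selection cells they summed to 21976 CPM in mutant (39 cells) and 18914 CPM in wild type (32 cells), with a median of 0.28 that turned to -1.46 with the thinned gates. Markers of innate-like cells summed to 199.96 CPM in mutant and 110.05 CPM in wild type strongly cycling cells, with 2 of 7 genes at 0 in each, and markers of antigen-presenting cells to 54.6 CPM in mutant, with 3 of 14 genes at 0, and 48.7 CPM in wild type, with 1 at 0. Their part in these values was not tested.

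Outside the gate the restricted members were rare in each stage. Cdk1 was found in 2 of 296 mutant and 2 of 179 wild type DP cells, in 4 of 424 mutant and 3 of 199 wild type SP cells, and in 0 of 41 mutant and 0 of 10 wild type DN cells. Smc4 was found in 58.7% of mutant and 57.3% of wild type SP cells outside the gate, and in 39.9% of mutant and 53.1% of wild type DP cells, at 426 CPM in mutant and 346 CPM in wild type SP cells and 318 CPM in mutant and 396 CPM in wild type DP cells. Hjurp was found in 19.6% of mutant and 20.1% of wild type SP cells and in 15.5% of mutant and 17.9% of wild type DP cells. Anp32e was at 397 CPM in mutant and 211 CPM in wild type DP cells outside the gate (0.91, 0.54 to 1.29), from 140 of 296 mutant cells (47.3%) and 56 of 179 wild type cells (31.3%), with no cell above 8 UMIs. In SP cells outside the gate it was at 99.3 CPM in mutant and 100.3 CPM in wild type. Among the 15 members that reached 20 CPM in DP cells outside the gate Anp32e and Ncapd2 were higher by 1.5 times or more, against 20.1% of all genes, and Ccnb2, Ube2c, Birc5 and Rangap1 lower, against 10.4%. Of these, all but Anp32e rest on 16 UMIs or fewer in either library. Members at such counts can pass the 20 CPM limit through the library where they are higher, which favours the direction given.

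Other genes of the same machinery, which set the gate and are therefore given for orientation only, are set beside the members here. Of 43 other mitosis genes 40 reached 20 CPM over all cells, all 40 lower in mutant, with a median of -0.63. Lower by 1.5 times or more were 26 of them, against 3.98% of all genes. Of the 42 that did so in strongly cycling cells, 16 were lower and 26 higher, none by 1.5 times, with a median of 0.07. Of all genes 2.75% were lower and 11.4% higher by that much there. Of 30 replication genes 27 of the 29 that reached 20 CPM were lower over all cells, with a median of -0.53. In strongly cycling cells their median was 0.18, as was that of all genes. There 4 of the 30 (13.3%) were higher by 1.5 times or more, near the 11.4% of all genes. Inside the gate the lowest ratios among the other mitosis genes that reached 20 CPM were those of Aspm (17.3 CPM in mutant, 30.5 CPM in wild type), Cenpm (68.9 CPM in mutant, 111 CPM in wild type) and Cenpn (28.4 CPM in mutant, 45.1 CPM in wild type). The highest among them were those of Shcbp1 (68.1 CPM in mutant, 63.9 CPM in wild type), Kif20a (40.6 CPM in mutant, 38.6 CPM in wild type) and Cit (72.9 CPM in mutant, 72.3 CPM in wild type).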

How the data were processed

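The authors deposited raw counts of UMIs for each barcode and gene symbol. Per the submitters' processing notes these come from Cell Ranger and mm10, and the version is not given in the sources used here. Per the labels' protocols, 5000 cells per sample were loaded for 10x Chromium 3′ v2 libraries. Reads are counted at the 3′ end, so that a UMI does not depend on transcript length. GENCODE M21 of the same build gave gene positions: 3 members (Cdc20, Ube2c, Lbr) have a gene on the opposite strand within their last 1000 bases, and none has one on the same strand.

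Cells with at least 400 genes and at most 10% mitochondrial UMIs were kept, which left out 6 mutant and 5 wild type barcodes. Scrublet (scanpy 1.11.5) called 4 mutant cells (0.231%) and 1 wild type cell (0.0746%), which were left out, so that uncalled doublets remain. Gates were applied in order: other cells (10 UMIs of antigen-presenting, 5 of innate-like, 50 of haemoglobin or 3 of epithelial markers), SP (2 UMIs), post-selection (3), DN (2, and more than Cd4, Cd8a and Cd8b1 together), DP (2). Cycling needed 3 gate UMIs and 10 per 10000. UMIs were summed per library and gate and divided by the gate's total. Levels have exact Poisson, shares exact Clopper-Pearson and ratios exact conditional binomial 95% intervals (scipy 1.17.1). The ratios and their intervals were tested on simulated Poisson sums without spread between cells. The gates, levels and shares were not tested in this way. Counts of members use a minimum of 20 CPM in 1 library and a ratio of 1.5. A gene near 20 CPM can therefore enter through the library where it is higher, among members and all genes alike. No test between genotypes was made.

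Values are given for members named by level, by lowest and highest ratio in cycling cells, by the ratio of outside to cycling level and by detection within each role, and for some others chosen after their values were seen. The members, marker lists and roles were chosen with earlier results of these data known. The limit of 30 per 10000 and the thinned stage gates were chosen after seeing the data.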

Additional observations from a re-analysis of the deposited data

Results flagged for a closer look

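Hmgb2, a chromatin protein of dividing cells, stood on opposite sides of equality in the stage gates. In strongly cycling DN cells it was at 3893 CPM in mutant and 2472 CPM in wild type, a log2 ratio of 0.66 (0.45 to 0.87), and in post-selection cells at 6385 CPM in mutant and 5805 CPM in wild type, a log2 ratio of 0.14 (0.04 to 0.24). In SP cells it was at 4504 CPM in mutant and 5311 CPM in wild type, a log2 ratio of -0.24 (-0.31 to -0.16). The ratio in DN cells was thus 0.89 above that in SP cells, and the ratio in post-selection cells 0.37 above it. These differences between stages were not tested, since each stage has 1 library per genotype. The median log2 ratio over all genes was 0.39 in strongly cycling DN, 0.18 in post-selection and 0.16 in SP cells. The DN values rest on 37 mutant and 12 wild type cells, and the intervals cover counting error only. With stage gates set on cells thinned to 1500 UMIs the ratios of Hmgb2 were 0.70 in DN, -0.90 in post-selection (5 mutant and 3 wild type cells) and -0.20 in SP cells.

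Strongly cycling cells of the other cells gate, 70 in mutant and 68 in wild type, lay outside the comparisons by stage. The members summed to 17922 CPM in mutant and 12458 CPM in wild type there, with a median log2 ratio of 0.65 against 0.28 over all genes. Of the 50 members 47 were higher in mutant. Mitotic side cells were 21 in mutant and 11 in wild type, and median totals were 9740.5 UMIs in mutant and 12873 UMIs in wild type. Innate-like markers summed to 989 CPM in mutant and 618 CPM in wild type, and markers of antigen-presenting cells to 476 CPM in mutant and 645 CPM in wild type. DP markers summed to 926 CPM in mutant and 1333 CPM in wild type. The part of these values in the members' difference was not tested.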

How the results depend on the processing

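No paired analysis was possible because each genotype has 1 library, and no library could be left out. The median log2 ratio over all cells, -0.57, was -1.02 with cells thinned to 1500 UMIs and -1.03 with each cell weighted alike, and members lower by 1.5 times or more there, 22, were 37, 38 and, at a fold of 2, 0. Inside the cycling gate the median, -0.33, was -0.11 with the gate at 20 per 10000, 0.019 at 30, -0.64 with thinned cells and -0.72 as a mean over cells. Members lower by 1.5 times inside the gate, 4, were 15 with the gate at 5, 0 at 20 or 30, 30 with thinned cells, 29 as a mean over cells, 10 without ribosomal protein and mitochondrial genes in the totals, 2 without the 4% highest doublet scores, with a common lowest UMI total or a stricter cell filter, 0 with other cells kept in and 0 at a fold of 2. Outside the gate the median was -0.69 with a gate of replication genes alone, and the count of 2 was then 13, 6 without ribosomal protein and mitochondrial genes, 1 without cells holding 3 or more members, 17 with no filter on level and 0 at a fold of 2. In strongly cycling cells the count of 0 was 4 with thinned cells and 1 without ribosomal protein and mitochondrial genes. The DP median inside the gate, -0.28, was -0.71 as a mean over cells and 0.094 with stage gates on thinned cells, with which the post-selection median of 0.29 was -1.30 inside the gate and that of 0.28 was -1.46 in strongly cycling cells. The share of all kept cells inside the gate, with the other cells not counted as inside, 34.9% in mutant and 54.8% in wild type, was 39.6% in mutant and 58.4% in wild type at 5 per 10000, 22.2% in mutant and 43.9% in wild type at 20, 17.4% in mutant and 40.9% in wild type at 30 and 28.6% in mutant and 48.7% in wild type with replication genes alone. With stage gates on thinned cells the shares were 9.39% DN, 35.6% DP, 9.69% post-selection and 27.4% SP in mutant and 57.0% DP, 7.99% post-selection and 16.4% SP in wild type. With replication genes alone as the gate the 5 richest outside cells held 19.1% of member UMIs in mutant and 24.4% in wild type. The median share of strongly cycling cells with a UMI was 19.7% in mutant and 20.7% in wild type after thinning. With the other cells kept in, the strongly cycling cells held 89.5% of member UMIs in mutant and 96.0% in wild type. Shares and medians of all genes were not computed under these alternatives, apart from the gate at 30 per 10000, which takes the strongly cycling cells. The causes of these shifts were not tested. Of 363 values of 33 members inside the gate under alternatives, 44 changed sign, in 16 members, and of 198 values over all cells 2 did, both of Dlgap5. Members with few UMIs outside the gate are limited by depth.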
